A study of Mus musculus with 6 samples.

Results

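The 111 repeat names described here are the MaLR elements ORR1, MT and MLT, out of 1217 repeat names counted in RNA from mouse embryos in which both genes for histone H3.3 were targeted and from controls. They were chosen by name alone, as every name that starts with ORR1, with MT followed by a letter from A to E, or with MLT, which leaves out MT2. The set holds 25 ORR1, 19 MT, 57 MLT1 and 10 MLT2 names, of which 59 are long terminal repeats (LTRs) and 52 are internal stretches, marked -int. The MLT2 names are LTRs of ERVL elements in the usual repeat classification and not MaLR in the strict sense.

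MaLR elements are LTR retrotransposons related to the ERVL class that carry no protein genes of their own and moved with enzymes from other elements. MLT elements are old and shared by many mammals, while ORR1 and MT belong to rodents, with letters that run roughly from the younger A to the older E groups. MT and ORR1 LTRs serve as promoters in mouse oocytes and early embryos, among them an MTC copy that starts an oocyte form of Dicer1, and LTR elements are held silent in part by TRIM28 and SETDB1 through methylation of H3K9. Histone H3.3, encoded by H3f3a and H3f3b, is placed at many repeats by the ATRX and DAXX chaperone, and the study's comparison asks what its loss does to the embryo's RNA.

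Polyadenylated RNA from whole embryos at E10.5, on a mixed C57BL/6, CD1 and 129 background, gave 6 libraries, 3 per group. The 3 knockout samples carried a floxed and a null allele of both H3f3a and H3f3b, written fl/-, together with Trp53-/- and a single Sox2-Cre transgene (Tg/0). The 3 control samples carried a floxed and a wild-type allele of both genes, written fl/+, and the same Trp53-/- and Sox2-Cre Tg/0. All groups therefore lacked p53, and Sox2-Cre acts in the epiblast, so that the floxed alleles of the controls were open to deletion too and a wild-type copy of each gene was left. The labels do not say whether the embryos shared litters or were pooled, so p-values here speak only of how far these samples spread, which may be technical.

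H3f3a, the first of the targeted genes, stood at 70.0, 64.7 and 68.3 CPM (counts per 1000000 gene counts, for genes after TMM scaling) in knockouts, against 338, 366 and 342 CPM in controls. H3f3b stood at 468, 505 and 391 CPM in knockouts, against 676, 726 and 669 CPM in controls. Both genes were thus lower in every knockout than in any control, with RNA of both still counted in the knockouts. Gene counts were 24952853 to 27871038 in knockout libraries and 27775576 to 30461689 in control libraries. MaLR counts were 76281, 46469 and 84108 in knockouts 1 to 3 and 47367, 55218 and 60740 in controls 1 to 3. Reads outside all genes made up 18.3%, 10.6% and 18.0% of the alignments in knockouts 1 to 3, against 9.79%, 10.7% and 13.1% in controls 1 to 3. Knockout 2 thus sat within the control range in this share, and knockouts 1 and 3 lay above it. Reads that aligned to more than 1 place were not counted, so young, near-identical copies are represented only by reads that tell them apart. Each name sums many genomic copies of unstated number and length, so levels of different names are not comparable per length. Codes in the deposited names of the libraries differ between all knockouts and all controls, their meaning is not given, and code and genotype cannot be told apart.

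Scaled by gene counts, the MaLR sum was 1.39 times as high in knockouts as in controls, while scaled by reads outside genes it was 0.961 times as high. On the gene scale the groups overlapped, since knockout 2 sat among the controls. The sum was 3057, 1673 and 3018 CPM, here counts per 1000000 gene counts of the same library, in knockouts 1 to 3, against 1555, 1814 and 2187 in controls 1 to 3. Means were 2582 ± 788 in knockouts and 1852 ± 318 in controls (SD, n = 3 each), a log2 difference of 0.48. Knockouts 1 and 3 were 1.65 and 1.63 times the control mean, and knockout 2 was 0.903 times it. Without knockout 2 the log2 difference of the sums was 0.71. Without MLT2 names it was 0.49.

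ORR1, MT and MLT1 followed this pattern of libraries. ORR1 names summed to 1115, 590.0 and 1109 CPM in knockouts 1 to 3, against 536, 632 and 785 in controls 1 to 3, a log2 difference of 0.53. MT names, the largest share of MaLR counts at 47.6% to 48.4% per library, summed to 1474, 799 and 1460 in knockouts, against 740.4, 874 and 1049 in controls, a log2 difference of 0.49. MLT1 names summed to 413, 236 and 390.5 in knockouts, against 234, 257 and 307 in controls, a log2 difference of 0.38. In each of these 3 sums knockouts 1 and 3 lay above every control, and knockout 2 lay between the lowest and the highest control. The sum of the old ERVL LTRs MLT2 differed least, with 55.0, 47.5 and 58.4 in knockouts, against 44.2, 51.1 and 46.1 in controls, a log2 difference of 0.19. MLT2B5 and MLT2F, with fitted log2 fold changes of 0.039 and 0.021, held 3684 and 1850 of the 8497 counts of tested MLT2 names. Over those names the median was 0.46. LTR names together had a log2 difference of 0.50 and internal names one of 0.40.

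**Figure D1:**
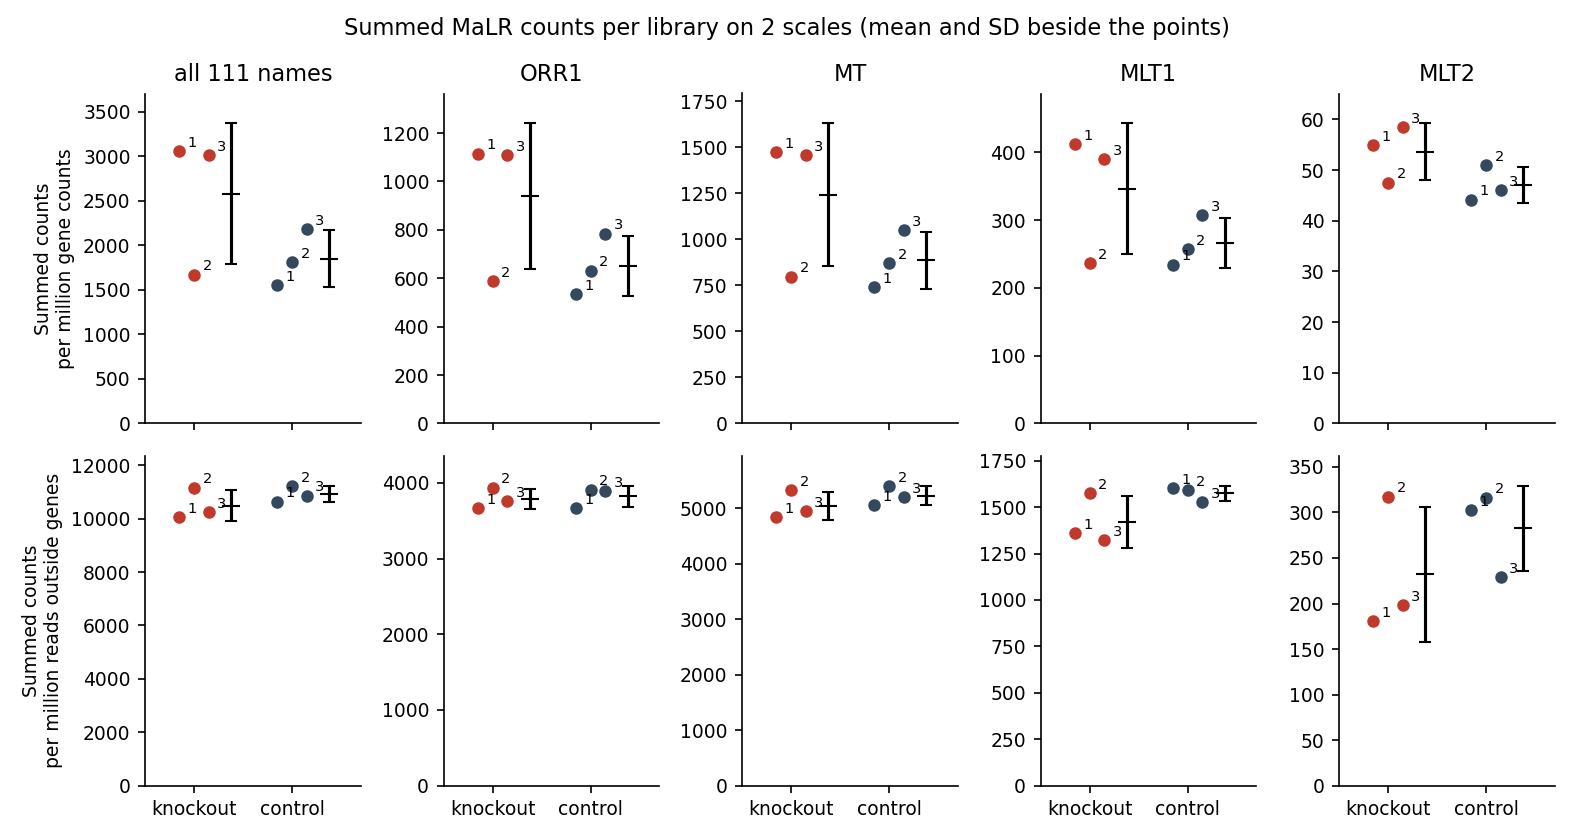
Summed counts of all 111 MaLR names and of ORR1, MT, MLT1 and MLT2 in each library (points, numbered by replicate), with the mean and SD of each group of 3 beside them, per 1000000 gene counts (top) and per 1000000 reads outside genes (bottom). Per gene count, knockouts 1 and 3 stand above the controls in every panel and knockout 2 lies within their range; per read outside genes, the sum over all names runs from 10060 to 11163 in knockouts and from 10635 to 11231 in controls.

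The share of reads outside genes moved with these sums. Scaled to 1000000 reads outside genes instead, MaLR counts were 10060, 11163 and 10233 in knockouts 1 to 3, against 10635, 11231 and 10863 in controls 1 to 3, a log2 difference of -0.06. Knockouts 1 and 3 were then the 2 lowest libraries, by a small margin. ORR1 had a log2 difference of -0.01 on this scale, MT one of -0.05, MLT1 one of -0.15 and MLT2 one of -0.28. MLT2 stood at 181, 317 and 198 per 1000000 reads outside genes in knockouts, against 302, 316 and 229 in controls, so that knockouts 1 and 3 lay under every control. MT internal names stood at 1084, 1464 and 1122 in knockouts, against 1375, 1452 and 1357 in controls, with knockouts 1 and 3 again the lowest. Why that share differed between libraries was not tested. A read over a MaLR copy may lie inside a gene's transcript, in an intron or between genes, and the tables do not give its position.

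Other repeats were high in the same libraries. The 111 LINE-1 names had a log2 difference of 0.54 between the sums in CPM, and the 21 SINE names of B1 to B4 one of 0.58. The 7 names that start with MT2 or MERVL, ERVL elements of which some are active at the 2-cell stage, had one of 0.41. The other 559 repeat names, without structural RNA and simple repeats, had a log2 difference of 0.36. Scaled by reads outside genes, these differences were -0.01 for LINE-1, 0.02 for SINEs, -0.12 for MT2 and MERVL and -0.15 for the 559 names. The MaLR differences, 0.48 and -0.06 on these scales, thus lay within the range of the other sums on both, a comparison given here without a test.

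As a share of all repeat counts MaLR made up 2.46%, 1.75% and 3.08% in knockouts 1 to 3, against 1.03%, 1.61% and 1.97% in controls 1 to 3, a log2 difference of 0.66. Ribosomal RNA names are a large and uneven part of that denominator, at 63321, 57272 and 35195 CPM in knockouts and 115378, 72168 and 63912 in controls. All repeat names stood at 124477, 95790 and 98120 CPM in knockouts and 151013, 112464 and 111100 in controls. Without structural RNA names the MaLR share was 5.03%, 4.39% and 4.83% in knockouts, against 4.40%, 4.54% and 4.66% in controls, a log2 difference of 0.068. Each share has a Wilson 95% interval of at most 0.039 percentage points to either side, which covers counting error only.

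Of the 111 names, 89 passed the filter on low counts and were tested, all 25 ORR1, all 19 MT, 36 MLT1 and 9 MLT2 names. The 22 others were 21 internal MLT1 names and MLT2E, with at most 53 counts each over the 6 libraries. The names MLT1E1-int, MLT1H1-int, MLT1K-int, MLT1L-int and MLT1N2-int had 0 counts in all libraries, which allows 3 counts, or 0.0985 to 0.120 CPM in a library. No MaLR name passed an adjusted p of 0.05 in edgeR's quasi-likelihood test, and neither did any of the 853 repeat names tested (0%). The lowest adjusted p among MaLR names was 0.272. At an unadjusted p under 0.05 there were 4 of the 89 (11.6% of all tested names), all higher in knockouts. DESeq2 called 0 of the 89 at an adjusted p under 0.05 (0.234% of all tested names) with 11 at an unadjusted p under 0.05 (23.2%), and limma-voom called 0 (0%) with 2 unadjusted (7.15%).

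The fitted log2 fold changes, knockout over control, lay above 0 for 88 of the 89 MaLR names (94.1% of all tested names). When libraries were scaled by reads outside genes they did so for only 41 of 89, beside 433 of 845 over all repeat names. With TMM of the repeat counts they lay above 0 for 42 of 89, beside 452 of 845 over all names. That scaling removes a shift common to most repeats by construction, so this count says nothing about such a shift. Scaled by gene counts, the median of the MaLR log2 fold changes was 0.50, beside 0.54 over all tested repeat names. On that scale they ranged from -0.0086 for MTE2b-int to 1.09 for MLT2B3. Family medians were 0.48 for ORR1, 0.52 for MT, 0.55 for MLT1 and 0.46 for MLT2. LTR names had a median of 0.51 and internal names one of 0.44. Along the letters of the MT LTRs, from young to old, the log2 fold changes were 0.61 for MTA_Mm, 0.39 for MTB, 0.62 for MTB_Mm, 0.67 for MTC and 0.59 for MTD. The older MTE2a, MTE2b, MTEa and MTEb had 0.40, 0.55, 0.52 and 0.35. These values did not run one way with the letters. Their standard errors, 0.26 to 0.34, include a spread between libraries that the names share, so they do not measure the error of a difference between names. With reads outside genes as the scale, MTC and MTEb, the highest and lowest here, had 0.096 ± 0.10 and -0.18 ± 0.10. Differences between names were not tested.

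**Figure D2:**
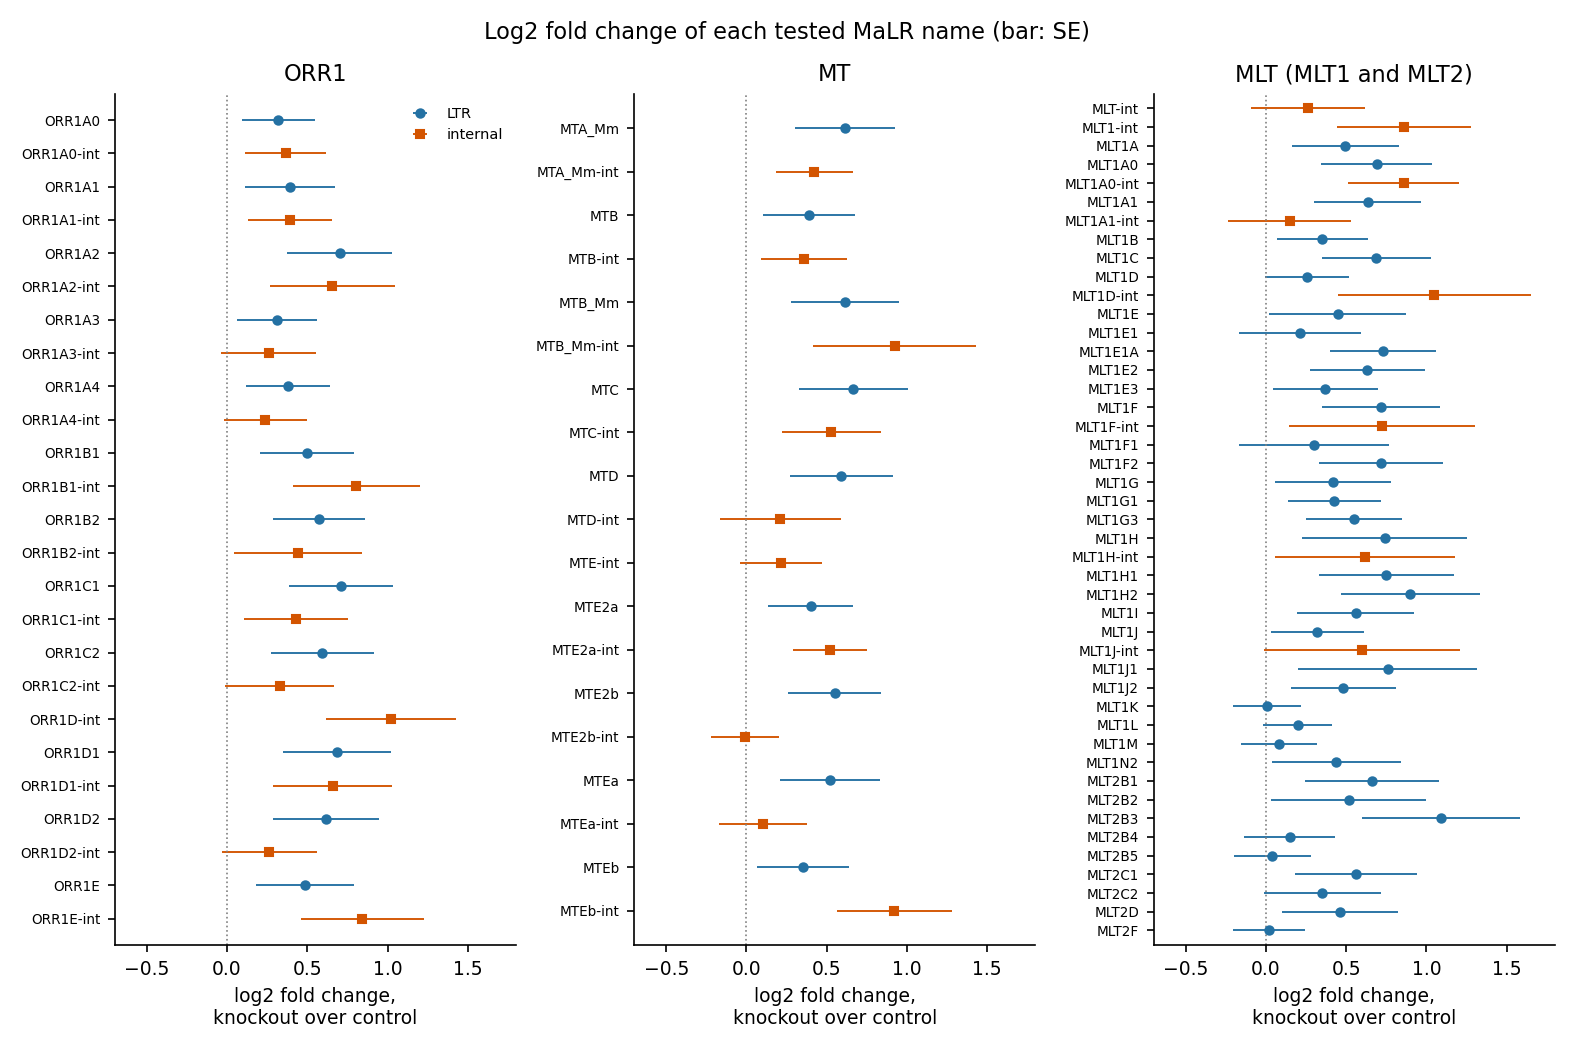
Log2 fold change, knockout over control, of each of the 89 tested MaLR names with its standard error as a bar, for ORR1, MT and MLT names, LTRs as circles and internal names as squares (3 libraries per group, counts scaled by gene totals). All but MTE2b-int lie above 0 on this scale. When scaled by reads outside genes 41 of 89 do, beside 433 of 845 over all repeat names. The bars give the error of each fold and not that of a difference between names, and no name passed the test.

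The most counted ORR1 names are LTRs. ORR1E, the oldest group, stood at 121, 61.8 and 119.9 CPM in knockouts 1 to 3, against 59.6, 72.7 and 83.9 in controls 1 to 3. ORR1B1 stood at 98.6, 52.7 and 98.5 in knockouts, against 50.2, 59.1 and 67.4 in controls. ORR1A2, of the youngest group, stood at 98.3, 47.8 and 98.2 in knockouts, against 41.2, 46.8 and 62.3 in controls. In all 3 names knockouts 1 and 3 were almost equal and above every control, and knockout 2 lay between controls. The log2 fold changes were 0.48 ± 0.30 for ORR1E, 0.50 ± 0.29 for ORR1B1 and 0.70 ± 0.33 for ORR1A2 (SE), with edgeR adjusted p-values of 0.289, 0.277 and 0.272 in that order. ORR1D-int, an internal name, had a steeper difference, with 11.1, 5.22 and 13.3 in knockouts, against 3.18, 4.86 and 6.55 in controls. Its log2 fold change was 1.02 ± 0.41 with an edgeR adjusted p of 0.272, and knockout 2 again lay among the controls. Scaled by reads outside genes, ORR1D-int stood at 36.5, 34.8 and 45.0 in knockouts, against 21.8, 30.1 and 32.5 in controls, so that on that scale every knockout was above every control, with a log2 fold change of 0.46 ± 0.19 and an edgeR adjusted p of 0.454.

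MTD was the most counted MaLR name of all. It stood at 358, 169 and 344 CPM in knockouts 1 to 3, against 154, 191 and 233 in controls 1 to 3. MTC, the group whose LTR starts the oocyte form of Dicer1, stood at 194, 86.5 and 194 in knockouts, against 81.2, 94.1 and 124 in controls. MTE2a stood at 146, 85.1 and 139.8 in knockouts, against 82.6, 91.6 and 107 in controls. Knockouts 1 and 3 exceeded every control in all 3 names, and knockout 2 lay between the lowest control and the middle one. Log2 fold changes were 0.59 ± 0.32 for MTD, 0.67 ± 0.34 for MTC and 0.40 ± 0.26 for MTE2a, with edgeR adjusted p-values of 0.272, 0.272 and 0.308. Scaled by reads outside genes, MTD stood at 1178, 1127 and 1168 in knockouts, against 1052, 1185 and 1157 in controls, a range within which the groups overlap.

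Some MT internal names behaved otherwise. MTE2b-int stood at 35.0, 30.7 and 34.2 CPM in knockouts 1 to 3, against 31.3, 34.5 and 34.8 in controls 1 to 3, the steadiest level of all tested MaLR names, with a log2 fold change of -0.0086 ± 0.21. MTEb-int stood at 4.53, 2.02 and 3.41 in knockouts, against 1.61, 1.90 and 1.73 in controls, with a log2 fold change of 0.92 ± 0.36. MTE2a-int stood at 14.9, 12.2 and 17.1 in knockouts, against 9.75, 10.3 and 10.8 in controls, with a log2 fold change of 0.52 ± 0.23. In MTEb-int and MTE2a-int every knockout, knockout 2 included, was above every control, and both had an edgeR adjusted p of 0.272. Neither kept that order per 1000000 reads outside genes, where MTE2a-int stood at 49.1, 81.7 and 57.9 in knockouts, against 66.7, 63.9 and 53.5 in controls.

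Among MLT1 names, the LTR MLT1D stood at 82.0, 48.9 and 76.9 CPM in knockouts 1 to 3, against 51.5, 58.1 and 64.7 in controls 1 to 3. MLT1B stood at 50.4, 27.0 and 45.2 in knockouts, against 28.9, 30.1 and 37.1 in controls. In both, knockouts 1 and 3 were the highest libraries and knockout 2 was the lowest of all 6, with log2 fold changes of 0.25 ± 0.26 and 0.35 ± 0.28. MLT1K stood at 44.2, 37.0 and 42.9 in knockouts, against 39.9, 41.5 and 42.1 in controls. Here too knockouts 1 and 3 were the highest and knockout 2 the lowest library, but by small margins, with a log2 fold change of 0.0072 ± 0.21 and an edgeR adjusted p of 0.981. The internal MLT1A0-int stood at 2.93, 2.16 and 3.34 in knockouts, against 1.12, 1.54 and 1.98 in controls, all knockouts above all controls, with a log2 fold change of 0.86 ± 0.35 and an edgeR adjusted p of 0.272. MLT1D-int rested on few reads, with 25, 6 and 29 counts in knockouts and 9, 14 and 9 in controls, and had a log2 fold change of 1.05 ± 0.60.

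The most counted MLT2 names were among the steadiest. MLT2B5 stood at 19.2, 25.2 and 21.5 CPM in knockouts 1 to 3, against 21.8, 24.9 and 17.4 in controls 1 to 3. MLT2F stood at 10.8, 10.01 and 12.2 in knockouts, against 9.59, 12.0 and 11.0 in controls. MLT2B4 stood at 7.01, 4.32 and 6.42 in knockouts, against 4.66, 5.75 and 5.62 in controls. The groups overlapped in all 3 names, and log2 fold changes were 0.039 ± 0.24 for MLT2B5, 0.021 ± 0.23 for MLT2F and 0.15 ± 0.28 for MLT2B4. MLT2B3 differed from these, with 3.57, 1.33 and 4.23 in knockouts, against 0.919, 1.28 and 2.09 in controls, a log2 fold change of 1.09 ± 0.49 and an edgeR adjusted p of 0.272.

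Groups that did not overlap were found for 6 of the 89 names, all higher in knockouts, which is 6.74% beside 10.3% of all tested repeat names. They were MLT1A0-int, MTE2a-int and MTEb-int, described above, and MLT1E1A, MLT1G3 and MTA_Mm-int, which are named after their values were seen. MTA_Mm-int, the internal stretch of the youngest MT group, was the most counted of the 6, at 67.3, 53.9 and 73.6 CPM in knockouts, against 40.6, 51.1 and 53.7 in controls. Knockout 2 exceeded control 3 there by a small margin. No MaLR name was lower in every knockout than in every control (0.586% of all tested names).

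Library by library, knockout 1 was above the highest control in 85 of the 89 names (87.7% of all tested names), knockout 3 in 83 (88.9%) and knockout 2 in 7 (12%). Knockout 2 was below the lowest control in 29 of the 89 (32.6%, beside 20.3% of all tested names). Relative to the control mean, the median log2 level of the 89 names was 0.79, -0.16 and 0.73 in knockouts 1 to 3, against -0.27, -0.034 and 0.25 in controls 1 to 3. Scaled by reads outside genes, these medians were -0.046, 0.016 and -0.083 in knockouts, against -0.054, 0.041 and 0.0074 in controls. On the gene scale the controls also differed among themselves in the order of their shares of reads outside genes.

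**Figure D3:**
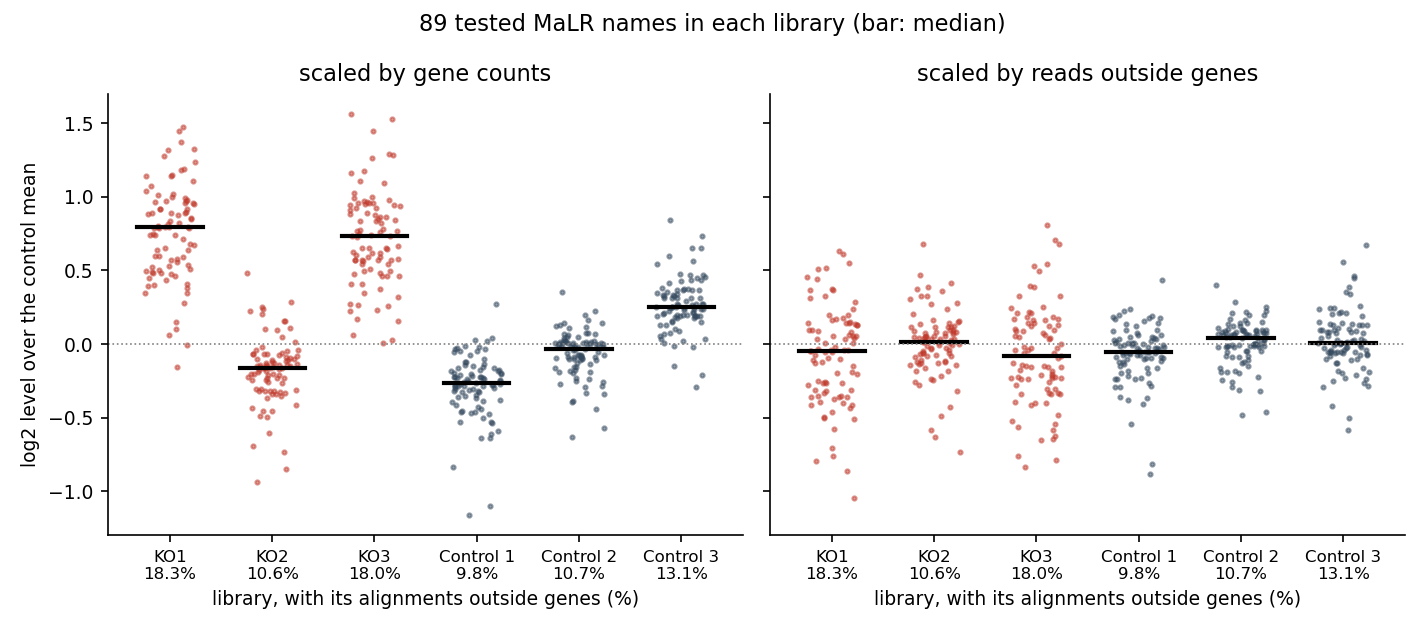
Log2 level of each of the 89 tested MaLR names (points) over its mean in the 3 controls, in each library, scaled by gene counts (left) and by reads outside genes (right), with the median as a bar and the share of alignments outside genes under each library. Scaled by gene counts the medians of knockouts 1 and 3 are 0.79 and 0.73 and that of knockout 2 is -0.16; scaled by reads outside genes all 6 medians lie between -0.083 and 0.041.

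Leaving out knockout 2 changed the calls. With knockouts 1 and 3 against the 3 controls, 61 of 91 tested MaLR names passed an edgeR adjusted p of 0.05, all higher in knockouts, beside 63.9% of all tested repeat names. They were 21 of 25 ORR1, 15 of 19 MT, 21 of 38 MLT1 and 4 of 9 MLT2 names. All 9 MT LTRs and 11 of the 12 ORR1 LTRs were called. The median log2 fold change was 0.74 over the MaLR names and 0.80 over all names tested. MTC, for example, had a log2 fold change of 0.96 ± 0.20 and an edgeR adjusted p of 0.00679, and ORR1A2 one of 0.97 ± 0.20 and the same adjusted p. MTE2b-int and MLT1K, at 0.047 ± 0.18 and 0.081 ± 0.17, were not called there either. The calls of MaLR names rest on this choice of libraries, and the share called was close to that of all repeats. Leaving out any of the other 5 libraries gave 0 calls.

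**Figure D4:**
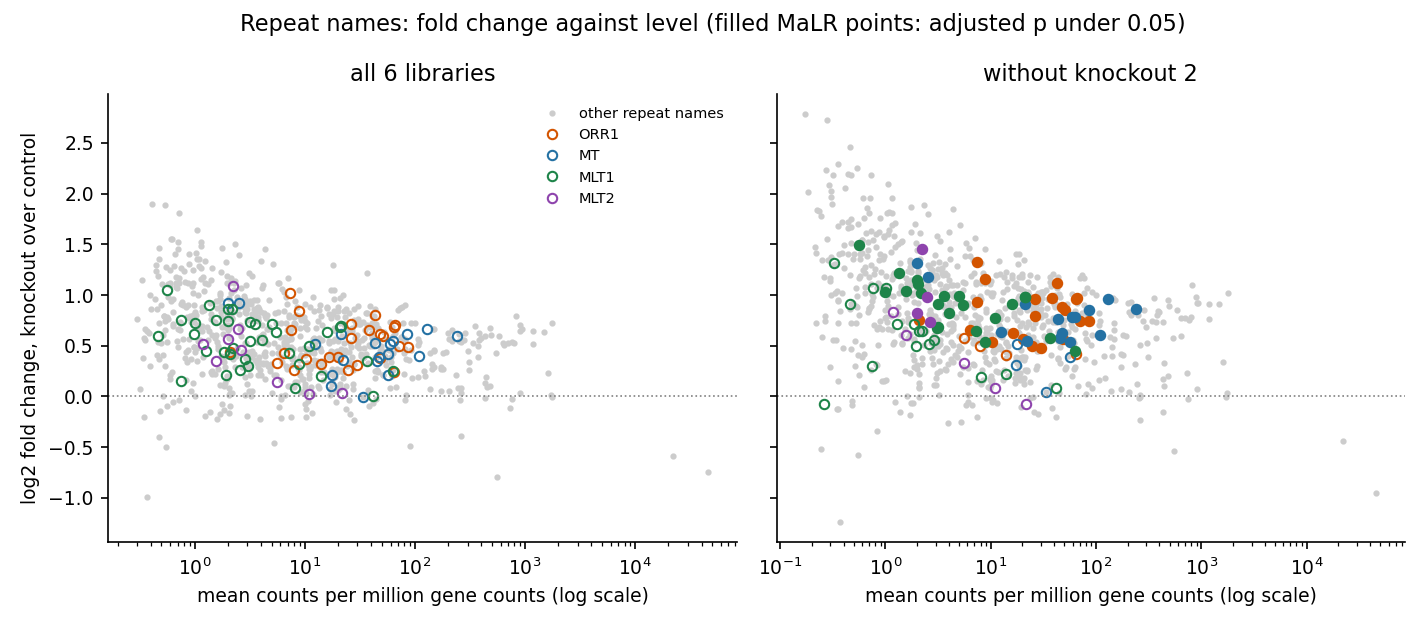
Log2 fold change, knockout over control, against the mean level in CPM (log scale) for each tested repeat name, with all 6 libraries (left) and without knockout 2 (right); MaLR names are coloured by family, filled where the adjusted p was under 0.05, and other repeat names are grey. No MaLR point is filled on the left and 61 are on the right, where MaLR names lie within the cloud of other repeats.

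When a library's fraction of reads outside genes entered the fit beside genotype, the median log2 fold change of the 89 names was -0.04. Above 0 lay 34 of the 89, beside 434 of 853 over all tested repeat names. The 1 MaLR name called in that fit, MTD-int, named after its value was seen, was lower in knockouts, with a log2 fold change of -0.54 ± 0.14 and an edgeR adjusted p of 0.0425, beside 0.352% of all tested names that this fit called lower. Its levels in CPM were 21.8, 10.2 and 25.3 in knockouts and 12.8, 13.8 and 22.9 in controls, and without the covariate its log2 fold change was 0.21 ± 0.38. A share that differs between the groups is partly the same as genotype in so few libraries, and this fit cannot separate them.

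A few names varied little between libraries per gene count. The highest library was under 1.5 times the lowest in CPM for 6 of the 89 names (6.74%, beside 12.8% of all tested repeat names), namely MTE2b-int, MLT1K, MLT2F, MLT1M, MLT1L and MLT2B5, of which MLT1M and MLT1L are named after their values were seen. The median of that ratio was 2.16 over the 89 names. On the other scale such names vary by their choice, since the share of reads outside genes differs between libraries, and their values are given as a description. MLT1K stood at 145, 247 and 146 per 1000000 reads outside genes in knockouts 1 to 3, against 273, 257 and 209 in controls 1 to 3. MTE2b-int stood at 115, 205 and 116 in knockouts, against 214, 213 and 173 in controls. In both names knockouts 1 and 3 were the lowest libraries on that scale.

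The genes that deposit H3.3 and silence LTR elements were read from the gene tables. Of 52 tested genes in 4 lists, edgeR's quasi-likelihood test with Benjamini-Hochberg adjustment over all 15075 tested genes called 2 (1.51% of all genes), both targeted genes and both lower in knockouts. H3f3a fell by 2.37 on the log2 scale (SE 0.075, adjusted p = 1.5e-06). H3f3b fell by 0.60 (SE 0.10, adjusted p = 0.0257), and its call was lost when knockout 3 or any 1 control was left out, with adjusted p-values of 0.0617 to 0.140. Neither Atrx nor Daxx passed the test. In the H3.3 list, with 2 called of 11, the next gene by p was Ubn2, a subunit of the HIRA chaperone, at 195, 126 and 210.0 CPM in knockouts, against 119, 116 and 154 CPM in controls. Its knockouts 1 and 3 were above the controls and knockout 2 was not, with a log2 fold change of 0.44 ± 0.19 and an edgeR adjusted p of 0.243.

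Among the 25 tested genes for H3K9 methylation and LTR repression, edgeR and DESeq2 called 0, with 3 and 5 at an unadjusted p under 0.05 (19.2% of all genes in edgeR). Cbx1, an HP1 protein that binds methylated H3K9, had a log2 fold change of -0.23 ± 0.07 and an edgeR adjusted p of 0.134. Smarcad1, a remodeller of silent chromatin, had -0.18 ± 0.06 and an adjusted p of 0.173, and Morc2a, which works with the HUSH silencing complex, had 0.20 ± 0.08 and an adjusted p of 0.233. Trim28 had -0.18 ± 0.08 and Setdb1 0.15 ± 0.07, with adjusted p-values of 0.282 and 0.296. All 25 folds lay between -0.23 and 0.44 on the log2 scale.

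Of 5 tested genes for DNA methylation both tools called 0 (1.51% of all genes in edgeR), each with 1 at an unadjusted p under 0.05 (19.2%). The maintenance methyltransferase gene Dnmt1 had a log2 fold change of 0.17 ± 0.08, Uhrf1, which guides it, 0.12 ± 0.07, and Dnmt3a, a methyltransferase for new sites, 0.06 ± 0.08. Of 11 tested genes for the decay of nuclear and repeat RNA both tools called 0. Each had 3 at an unadjusted p under 0.05, beside the same 19.2% of all genes in edgeR. Ythdc1, a reader of m6A in nuclear RNA, had 0.21 ± 0.08 (edgeR adjusted p = 0.215), Skiv2l2, the helicase of the nuclear exosome, -0.24 ± 0.10 (0.226) and Exosc3, an exosome subunit, -0.21 ± 0.09 (0.258). Without knockout 2, 8 of the 52 genes were called (10.8% of all genes), H3f3a and H3f3b lower and 6 higher. Those 6 were Ubn2, Morc2a and Ythdc1, and Zfp57, Zfc3h1 and Pabpn1, which are named after their values were seen.

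Marker genes of embryonic and other tissues were read from the same gene tables. All 12 markers of embryonic tissues passed the filter on low counts, and the embryonic globin Hbb-y was the most abundant. Of the 12, 10 had log2 fold changes below 0. By edgeR only Nppa, an atrial peptide, was called, higher in knockouts (1.51% of all genes were called). DESeq2 called Nppa higher and Neurog2 lower, the latter at -0.46 ± 0.12 with a DESeq2 adjusted p of 0.0081. Without knockout 2, edgeR called Nppa higher and Neurog2 lower too. Of 13 oocyte and germ cell markers only 3 passed the filter on low counts, and Oosp1 and Oog1 were at 0 in all libraries. None was called by edgeR or DESeq2, with 1 at an unadjusted p under 0.05 in each (19.2% of all genes in edgeR). That 1 gene was Nlrp5, an oocyte gene named after its values were seen, with 17, 21 and 19 counts in knockouts, against 2, 7 and 6 in controls. Every knockout, knockout 2 included, was above every control, with a log2 fold change of 1.98 ± 0.43 and an edgeR adjusted p of 0.0631. Without knockout 2 Nlrp5 was called higher, at 1.89 ± 0.49 with an edgeR adjusted p of 0.0345. The tables also list a pseudogene, Nlrp5-ps, so how its reads were split is uncertain. The other tested markers, Gdf9 and Ddx4, had log2 fold changes of 0.0052 ± 0.30 and -0.21 ± 0.26, with edgeR adjusted p-values of 0.995 and 0.678. The 13 markers summed to 2.73, 3.56 and 3.42 CPM in knockouts, against 2.88, 3.16 and 2.58 CPM in controls, and their part in the MaLR counts was not tested. Trophoblast and decidua markers summed to 12.0, 16.6 and 14.8 CPM in knockouts and 12.1, 14.6 and 10.2 CPM in controls. Most of these sums was Hand1 alone, at 11.4, 16.2 and 14.4 CPM in knockouts and 11.5, 13.6 and 9.53 CPM in controls. The sums thus mainly follow that gene, and the tissue its RNA came from was not tested. Prl2c2, Tpbpa and Psg21 were at 0 in all libraries. Of 2 tested genes edgeR and DESeq2 called 0, with 1 and 0 at an unadjusted p under 0.05. Yolk sac endoderm markers summed to 187, 144 and 91.6 CPM in knockouts and 271, 181 and 171 CPM in controls. Most of this was Afp, at 142, 110 and 65.0 CPM in knockouts and 208, 136 and 126 CPM in controls. Which tissue the RNA of these markers came from was not tested either. By edgeR 1 of 5 tested genes, the carrier Ttr, was called lower in knockouts (0.955% of all genes). All 5 log2 fold changes lay below 0, from -1.69 for Ttr to -0.068 for Cubn. Amn, too low to be tested, had 4, 4 and 4 counts in knockouts, against 0, 0 and 1 in controls.

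Macrophage markers were almost absent from all knockouts, with 2.50, 2.71 and 1.78 CPM summed over 11 genes, against 74.0, 62.1 and 66.1 CPM in controls. All 11 were lower by edgeR's test (0.955% of all genes), and C1qb and C1qc were at 0 in every knockout. Knockout 2 was like the other knockouts in this list and in H3f3a, and unlike them in its MaLR counts and in its share of reads outside genes. For H3f3b it was the highest of the knockouts, at 505 CPM against 468 and 391 CPM, but below every control. In whole-embryo RNA fewer cells of a type and less RNA per cell cannot be told apart.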

How the data were processed

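For each library the authors deposited 2 tables of raw counts, per gene symbol and per repeat name, without normalization. Reads were aligned to mm9, and Trimmomatic, TopHat2, Bowtie2 and HTSeq are named, per the submitters' processing notes. Tool versions, the strand setting and the annotations are not stated in those notes or the labels. Rows that name no feature were set aside. Reads outside genes took 9.79% to 18.3% of alignments and reads without a unique alignment 18.2% to 22.6%.

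For the repeat counts edgeR 4.0.16 (R 4.3.3) ran its robust quasi-likelihood test on names past filterByExpr (at least 10 counts, and 15 in total), with the gene count total of the same library as library size and no further scaling. Genes were tested alike with TMM scaling. Standard errors of edgeR folds were derived from the test, as the absolute log2 fold change over the square root of its F statistic. P-values were adjusted by Benjamini-Hochberg over all tested names or genes, and an adjusted p under 0.05 was called. The biological coefficient of variation was 30.7% for repeats and 12.2% for genes. Sums, shares and medians over MaLR names carry no test.

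Alternatives were other scalings, filters, DESeq2 1.42.0, limma-voom 3.58.1, a covariate, a replicate block and each library left out. Correlations of same-numbered libraries over repeats were -0.28, 0.085 and 0.45, and no pairing was drawn from the numbers. Chi-square values per degree of freedom between libraries, over all repeat names, were at least 41.1, so no library repeats the counts of another. Such values cannot show whether the libraries came from separate embryos. The fits were tested on simulated data in which each name varied on its own. A shift shared by names within a library was not simulated, so error rates under such a shift were not tested.

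Named are the 3 most counted MaLR names per family, the 4 with the smallest p, the 3 with the highest and the 3 with the lowest fold, and in each gene list called genes and the 3 with the smallest p. The members and lists were chosen with earlier results of these data known.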

Additional observations from a re-analysis of the deposited data

How the results depend on the processing

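Depth set little limit on the sums, but each fold rests on 3 libraries a group, and knockout 2 alone separated 0 from 61 calls. The number of MaLR names called was 0 under 3 other scalings by gene counts, scaling by repeat counts or by reads outside genes, no filter, a mean of at least 50 counts, DESeq2, limma-voom, a fit without robust priors and the replicate block (median log2 fold change 0.47), and 1 with the fraction of reads outside genes as covariate. Leaving out each library in turn gave 0 to 61 calls, medians of 0.36 to 0.74, differences of the summed level of 0.34 to 0.71, differences of the share of repeat counts of 0.44 to 0.88, and 1 to 8 pathway genes called. The replicate block, for numbers that are not pairs, gave the same 2 pathway genes, and without pairing knockout 1 correlated best with control 3.

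With TMM of the repeat counts the median was -0.020 and the difference of the summed level -0.043, with reads outside genes -0.036 and -0.057, and with the covariate the median was -0.040. The share differed by 0.068 without structural RNA names and by 0.067 without rRNA names, the last chosen after seeing the data. TMM of the repeat counts removes a shift common to most repeats by construction. Of the 19 named MaLR names these changed sign, none with a call. With TMM of the repeat counts the log2 fold changes were -0.050 for ORR1E, -0.033 for ORR1B1, -0.12 for MTE2a, -0.26 for MLT1D, -0.46 for MLT1K, -0.17 for MLT1B, -0.38 for MLT2B5, -0.45 for MLT2F and -0.37 for MLT2B4. With reads outside genes they were -0.067, -0.048, -0.13, -0.27, -0.46, -0.19, -0.37, -0.45 and -0.38 for the same names in that order. With the covariate they were -0.079 for ORR1E, -0.023 for ORR1B1, -0.039 for MTD, -0.033 for MTC, -0.034 for MTE2a, -0.15 for MLT1D, -0.12 for MLT1K, -0.13 for MLT1B, -0.089 for MLT2F, -0.21 for MLT2B4 and -0.16 for MLT1D-int. Values near 0 also crossed it with TMM (RLE) of the gene counts, at -0.051 (-0.050) for MLT1K, -0.016 (-0.015) for MLT2B5 and -0.037 (-0.036) for MLT2F, and without Rn45s, at -0.027 for MLT1K and -0.012 for MLT2F. Leaving out each library in turn gave -0.042 to 0.081 for MLT1K, -0.088 to 0.16 for MLT2B5, -0.061 to 0.098 for MLT2F and -0.056 to 0.047 for MTE2b-int.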
